A study of Mus musculus with 35 samples.

Results

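The Ly6 family members examined were Ly6a, Ly6c1, Ly6c2, Ly6e, Ly6g and Ly6i, 6 of the 53379 genes in the deposited count table. They were found by matching their symbols to the Ensembl identifiers of the table, and all 6 had a row. Ly6C and Ly6G, the proteins encoded by Ly6c1 and Ly6c2 and by Ly6g, are the surface antigens on which the cells were sorted. The transcript levels of these 3 genes were therefore read as a check of the sort between cell types and as a measurement between treatments and compartments. That measurement holds only for cells that passed the gates. Whether treatment or compartment moved cells between gates was not tested.

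Ly6 proteins are small, cysteine-rich molecules held to the outer leaflet of the plasma membrane by a glycosylphosphatidylinositol anchor. Ly6G marks murine neutrophils and polymorphonuclear myeloid-derived suppressor cells (PMN-MDSC), and Ly6C marks monocytes and, at a lower level, neutrophils. Ly6A, also called Sca-1, is a marker of hematopoietic stem cells that interferon induces on many leukocytes. Ly6E is a broadly expressed, interferon-inducible member known for its influence on virus entry, and Ly6I is found on hematopoietic cells.

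Cells came from C57BL/6 mice with orthotopic tumors of T110299, a pancreatic cancer cell line derived from a genetically engineered mouse model, so that every group shared the same tumor. Treated mice received 50 µg poly(I:C) complexed with polyethylenimine (poly(I:C)c), a double-stranded RNA recognized by the cytosolic receptor MDA5, intravenously on days 18 and 20. Control mice received glucose, per the treatment protocol in the labels, and are called untreated, the name of their group. CD11b+ cells of spleen and tumor were sorted into PMN-MDSC (Ly6C low, Ly6G+) and monocytic MDSC (M-MDSC; Ly6C high, Ly6G-), and untreated bulk tumor was lysed without sorting. T110299 is 1 cell line, and age was not given in the labels. Each condition had 4 libraries, except 3 for treated spleen PMN-MDSC and 3 for treated tumor M-MDSC, in which 1 further library held 10 counts and was left out.

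The 30 MDSC libraries held 793070 to 4357105 counts and the 4 bulk tumor libraries 3771590 to 8886115. Levels are given in CPM, the counts of a gene scaled to a library total of 1000000. A count of 3, taken as the limit of detection, equals 3.78 CPM in the smallest MDSC library, an untreated tumor M-MDSC library, and no more than 1.92 CPM in any library of the other MDSC groups. Libraries were made by PCR without molecular identifiers, so these limits cover counting error only. Libraries of a group are numbered in the order of the table. By the series' design, 4 mice received poly(I:C)c and 4 glucose, and both cell types were taken from spleen and tumor of each. Libraries of different groups can thus share a mouse, but the columns do not name the mouse, and the tests treat all libraries as separate.

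All members lie in 1 cluster of 204 kb on chromosome 15 (74955051 to 75159126; GRCm38, GENCODE M21 annotation). From the first base on they follow in the order Ly6e, Ly6i, Ly6a, Ly6c1, Ly6c2 and Ly6g, with Ly6e and Ly6g on the plus strand and the others on the minus strand. Between them stand 7 other annotated genes, 0 of them protein-coding. Ly6g (ENSMUSG00000022582.4) spans bases 75155240 to 75159126 and Ly6c2 (ENSMUSG00000022584.14) bases 75108158 to 75111970.

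The members are close paralogs, which bears on what a count of reads can tell apart. The principal coding sequences of Ly6c1 and Ly6c2, both 396 bases long, are identical at 97.7% of positions and differ at 9. Ly6a and Ly6i share 86.4% of aligned positions, whereas Ly6e shares at most 54.1% with any other member. The first 120 coding bases are shown because they hold 6 of the 9 differences between Ly6c1 and Ly6c2, which are written in capitals.
Ly6c1: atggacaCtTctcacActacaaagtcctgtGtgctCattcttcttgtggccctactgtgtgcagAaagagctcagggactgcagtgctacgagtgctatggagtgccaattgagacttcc
Ly6c2: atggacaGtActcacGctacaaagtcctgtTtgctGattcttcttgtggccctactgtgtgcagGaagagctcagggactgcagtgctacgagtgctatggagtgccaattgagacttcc

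Of all stretches of 50 bases in the annotated Ly6c1 transcripts, 32.8% also occur in another gene of the cluster, 21.5% in Ly6c2 and 11.1% in Ly6a. The share was 19% for Ly6a, 14% for Ly6c2, 4.76% for Ly6i, 0.224% for Ly6g and 0% for Ly6e. How the authors treated reads that match several genes is not given in the sources used here. Values of Ly6c1, and to a lesser degree of Ly6a and Ly6c2, are therefore uncertain. Ly6e and Ly6g shared few or no such stretches with the other genes of the cluster. Only exact matches within the cluster were searched, so similar sequence with mismatches or elsewhere in the genome was not examined.

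RefSeq promoter sequence (GRCm38.p6) was at hand for 3 of the 6 members, Ly6c1, Ly6c2 and Ly6g. The 150 bases that end 26 bases before their starts in RefSeq are shown because only these members had promoter sequence at hand. The RefSeq starts differ from the GENCODE starts above. Transcripts of Ly6c2 and Ly6g rose in spleen PMN-MDSC, as did those of all 5 tested members. The windows are chr15:75048863-75049012 on the minus strand, chr15:75111997-75112146 on the minus strand and chr15:75155086-75155235 on the plus strand. Capitals mark runs of at least 10 bases that occur in all 3 windows.
Ly6c1: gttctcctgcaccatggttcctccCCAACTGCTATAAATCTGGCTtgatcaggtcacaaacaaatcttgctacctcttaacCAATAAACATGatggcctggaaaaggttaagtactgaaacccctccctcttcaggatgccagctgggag
Ly6c2: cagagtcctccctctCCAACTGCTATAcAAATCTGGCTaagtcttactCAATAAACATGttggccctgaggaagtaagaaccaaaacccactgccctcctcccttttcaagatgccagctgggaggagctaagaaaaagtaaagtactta
Ly6g: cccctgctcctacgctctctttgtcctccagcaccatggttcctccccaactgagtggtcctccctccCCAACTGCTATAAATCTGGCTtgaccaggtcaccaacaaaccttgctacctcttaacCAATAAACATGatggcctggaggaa

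Ly6c1 and Ly6g shared 59 runs of 10 bases in these windows, Ly6c1 and Ly6c2 12, and Ly6c2 and Ly6g 7, out of 141 in each. In the whole promoter entries of 300 bases, both strands were searched for the interferon-stimulated response element, spelled GAAA, any 2 bases, GAAA, and the gamma-activated sequence, spelled TTCNNNGAA. Neither occurred in the promoters of Ly6c1, Ly6c2 or Ly6g, which says only that these letters are not in these windows. Among all 32851 promoters, 3.44% held the first and 8.30% the second. Counted by gene, 3.99% of 27025 genes held the first. Of the 30 interferon-stimulated genes followed below, 22 had a promoter entry, and 11 of these held the first.

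**Figure D1:**
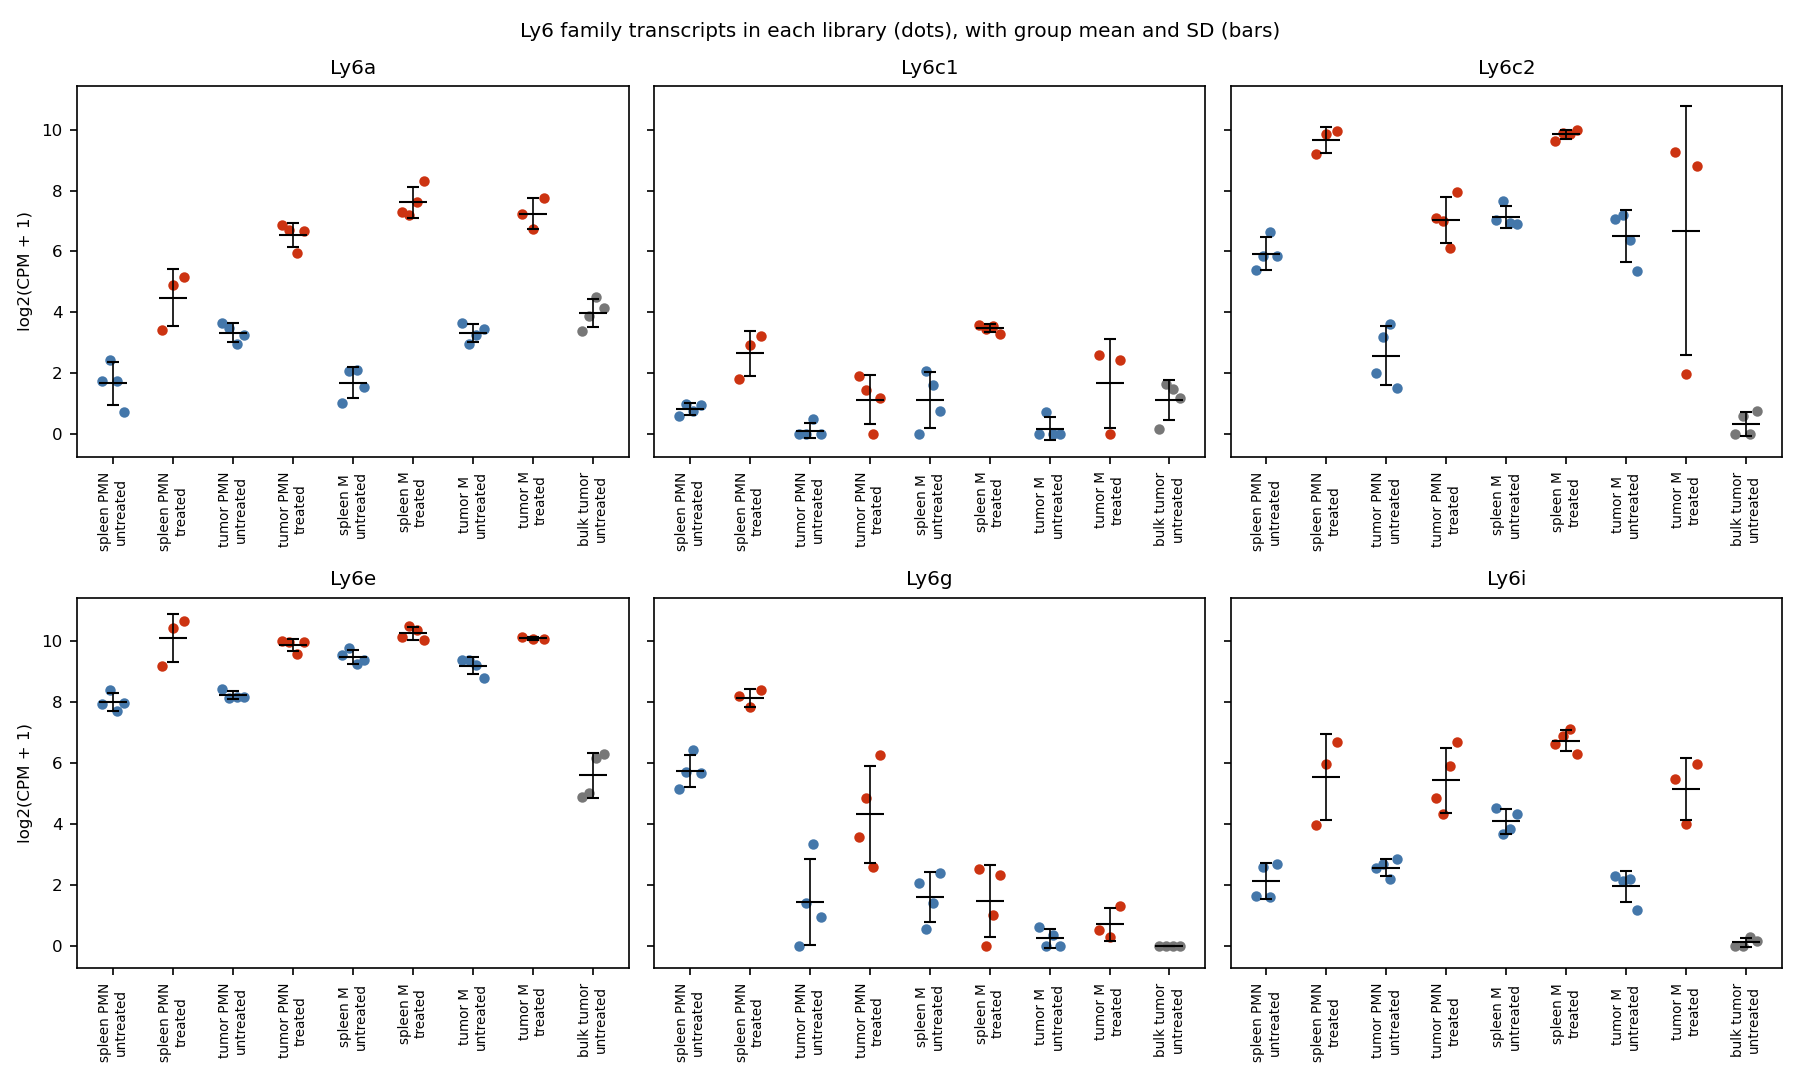
Level of each Ly6 family gene, as log2(CPM + 1), in every library of the 8 MDSC groups and bulk tumor; dots are libraries (blue untreated, red treated, gray bulk tumor), and bars give the group mean ± SD. Treated dots lie above untreated dots in all 4 populations for Ly6a, Ly6e and Ly6i, and for Ly6c2 in all but tumor M-MDSC, where 1 treated library stood at 2.98 CPM.

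For each population, treated libraries were set against untreated ones by the quasi-likelihood test of edgeR, limited to genes that averaged 25 counts or more, and a gene was called at a Benjamini-Hochberg adjusted p-value under 0.05. After poly(I:C)c, 5 of 5 tested members rose in spleen PMN-MDSC (6.10% of all 7261 tested genes were called higher), 4 of 5 in tumor PMN-MDSC (2.29%), 4 of 4 in spleen M-MDSC (10.7%) and 2 of 4 in tumor M-MDSC (1.82%). No member was called lower. Some members reached the minimum count only through treated libraries, as their mean in untreated libraries was below 25 counts. These were Ly6a in all 4 populations, Ly6i in all but spleen M-MDSC, and also Ly6c2 and Ly6g in tumor PMN-MDSC, so the counts of members called support nothing by themselves. Ly6c1 stayed below the minimum in every comparison, and Ly6g in M-MDSC.

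Beside the members, 30 interferon-stimulated genes, listed with earlier results of these data known, were followed over the same comparisons. Of these, 27 were called higher in spleen PMN-MDSC, with a median log2 fold change of 2.89 against 0.01 over all genes, and 28 in tumor PMN-MDSC, with a median of 2.18. In M-MDSC, 29 were called higher in spleen (median 1.98) and 11 in tumor (median 1.50), while the medians over all genes lay between -0.01 and 0.01. Irf7, a transcription factor that amplifies type I interferon production, had the smallest adjusted p of the list in tumor PMN-MDSC (log2 fold change 3.88, edgeR adjusted p = 9.6e-05). Ube2l6, the conjugating enzyme of ISG15, had the smallest in spleen PMN-MDSC (3.52, edgeR adjusted p = 4.4e-04), Ifit2, which encodes a protein that restricts viral translation, in spleen M-MDSC (3.64, edgeR adjusted p = 8.8e-06) and Ifi44 in tumor M-MDSC (4.08, edgeR adjusted p = 8.9e-04).

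**Figure D2:**
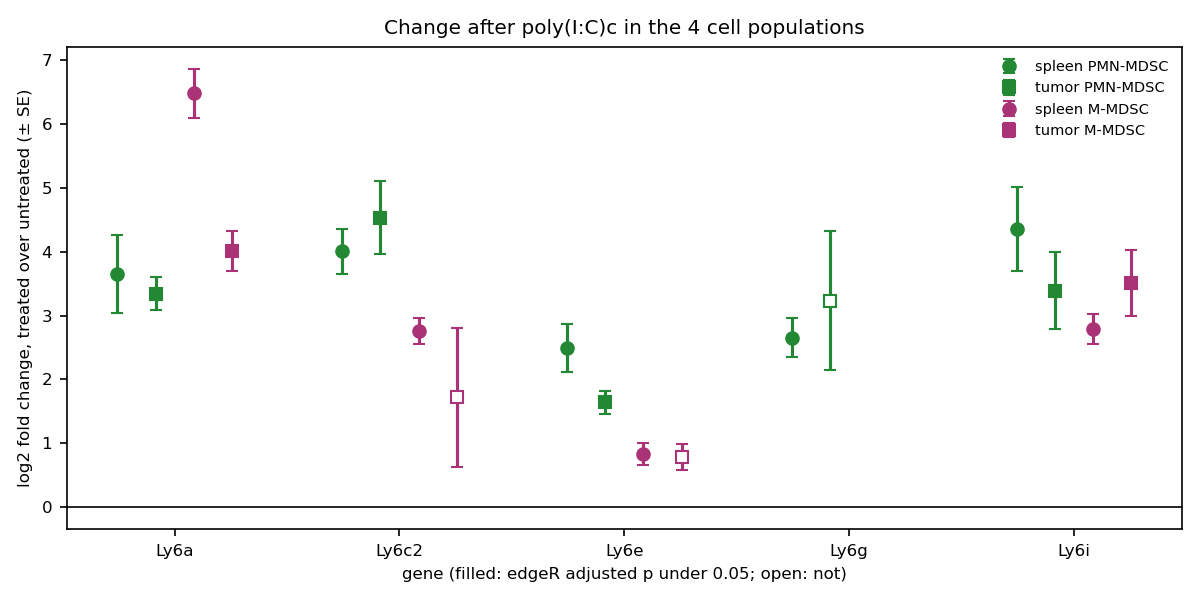
Log2 fold change of 5 Ly6 family genes after poly(I:C)c, treated over untreated, with its standard error, in spleen (circles) and tumor (squares) PMN-MDSC (green) and M-MDSC (purple); filled symbols passed edgeR's test and open symbols did not. The highest value is that of Ly6a in spleen M-MDSC (6.48), and the lowest are those of Ly6e in M-MDSC (0.83 and 0.78); Ly6g was not tested in M-MDSC.

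Several libraries did not match their sorted type in every marker. The summed level of 12 neutrophil markers was 26025 to 84928 CPM in spleen PMN-MDSC but 1922 to 14864 CPM in tumor PMN-MDSC, and none of the 12 was at 0 throughout any of these groups. In the same tumor libraries, 8 macrophage markers summed to 7639.8 to 19082 CPM, against 79.6 to 1704 CPM in spleen PMN-MDSC. The second treated tumor M-MDSC library held 29332 CPM of macrophage markers, against 5294 and 11282 CPM in the other treated libraries, and 138 CPM of T cell markers, against 9.27 and 23.9. One treated spleen M-MDSC library, number 4, held 8186 CPM of plasma cell markers, against 70.6 to 225 CPM in the others. It also held 158 CPM of NK cell, 134 CPM of B cell and 62.4 CPM of T cell markers, against at most 11.4, 21 and 4.73 CPM in the other treated libraries of the group. In bulk libraries, a lower level of a transcript can mean fewer cells that express it or less RNA per cell, which cannot be told apart.

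Ly6g, the antigen of PMN-MDSC, was detected mainly in spleen PMN-MDSC. Untreated libraries held 34.5, 51.8, 84.7 and 49.8 CPM, and treated libraries 292, 226 and 335 CPM. All treated libraries lay above the untreated ones, 55.2 ± 21.1 CPM (SD, n = 4) against 284 ± 54.9 CPM (SD, n = 3). The log2 fold change was 2.65 (standard error 0.305, edgeR adjusted p = 0.00280), and the call was kept without any 1 of the 7 libraries.

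Beside this rise, other neutrophil markers rose in part, and markers of other cells fell. Of the 12 neutrophil markers, which do not include Ly6g, 5 were called higher in spleen PMN-MDSC, S100a8, Retnlg, Mmp8, Mmp9 and Lcn2, with a median log2 fold change of 1.09. Of 8 macrophage markers, 7 were called lower, and their sum went from 528 to 1704 CPM in untreated libraries to 79.6 to 204 CPM in treated ones. Of 8 tested monocyte markers, 4 were called lower, Ccr2, Csf1r, Klf4 and Cx3cr1. The 6 erythroid markers went from 59.3 to 175 CPM down to 0.360 to 7.04 CPM in sum, with both tested ones, Hba-a1 and Hbb-bt, called lower, as was Cd209a, the only dendritic cell marker tested. The part of these shifts in the result for Ly6g, and in those for the other members in spleen PMN-MDSC, was not tested.

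In tumor PMN-MDSC, Ly6g was low for an antigen on which the cells had been sorted. Untreated libraries held 0, 1.63, 9.19 and 0.948 CPM, of which all but 1 library had at most 3 counts. Treated libraries held 11, 27.6, 5.02 and 76.2 CPM. The groups overlapped, and the log2 fold change of 3.23 had a standard error of 1.09 and did not pass (edgeR adjusted p = 0.167). Without each library in turn, where Ly6g was tested, the log2 fold change was 2.87 to 5.02 (edgeR adjusted p = 0.116 to 0.331). In 1 fit over the 8 groups it was called (edgeR adjusted p = 0.0149). The 12 neutrophil markers summed to 1922 to 6422 CPM in the untreated and 5389 to 14864 CPM in the treated libraries, 0 of them were called by edgeR, and their part in the result was not tested.

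M-MDSC were sorted as lacking Ly6G, and their Ly6g transcripts were few. Spleen M-MDSC held 0.464 to 4.28 CPM untreated and 0 to 4.73 CPM treated, with counts of at most 18. Tumor M-MDSC held at most 0.550 CPM untreated and 1.47 CPM treated. In untreated spleen, PMN-MDSC held 23.1 times the Ly6g level of M-MDSC, and in treated spleen 117 times. In treated tumor the ratio was 42.3. In untreated tumor it was at least 1.42, and the libraries of the 2 cell types overlapped. Ly6c2 in untreated tumor was 16.7 times higher in M-MDSC than in PMN-MDSC, and in treated tumor 2.46 times, with overlapping libraries. These ratios describe the sort and were not tested.

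**Figure D3:**
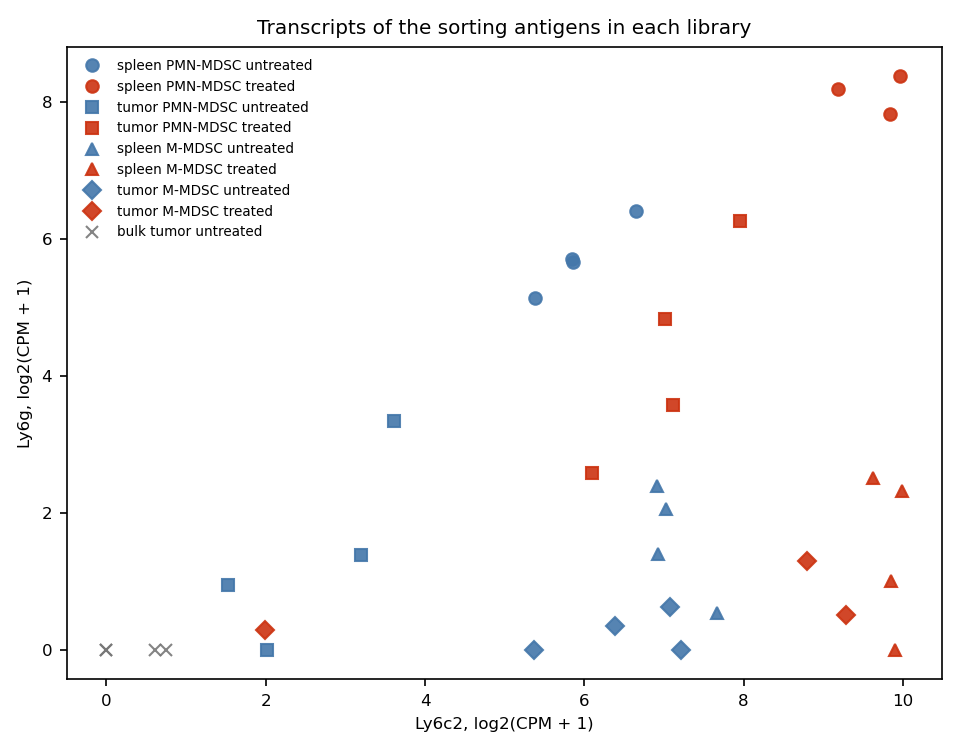
Levels of Ly6c2 (x axis) and Ly6g (y axis), as log2(CPM + 1), in each library; symbols give the cell population, and color the treatment. M-MDSC lie along the lower edge, spleen PMN-MDSC toward the top, and treated spleen PMN-MDSC reach the Ly6c2 levels of treated spleen M-MDSC (584 to 995 against 785 to 1014 CPM).

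Ly6c2 encodes the Ly6C antigen of C57BL/6 monocytes together with Ly6c1. It was called higher after treatment in both PMN-MDSC populations and in spleen M-MDSC. In spleen PMN-MDSC, untreated libraries held 40.6, 56.3, 99.3 and 57.2 CPM and treated ones 584, 916 and 995 CPM. Treated libraries lay far above all untreated ones, with a mean 13.1 times as high and a log2 fold change of 4.01 (standard error 0.352, edgeR adjusted p = 0.00126). The marker shifts given with Ly6g belong to the same comparison, and their part in this result was not tested. Scaling by edgeR's TMM factors, which take up differences in library composition, raised the treated mean from 832 to 1160.3 CPM.

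In spleen M-MDSC, Ly6c2 stood at 129, 202, 120.4 and 119 CPM untreated and at 785, 953, 924 and 1014 CPM treated. The groups were apart, and the log2 fold change of 2.76 (standard error 0.209, edgeR adjusted p = 4.1e-05) was smaller than in PMN-MDSC of the same organ. Of 10 monocyte markers, 2 were called higher (Ms4a4c and Ms4a6c) and 4 lower (Ccr2, Klf4, Cx3cr1 and Fn1), and their sum went from 9606 to 12925 CPM down to 4839.8 to 7765 CPM. The erythroid sum went from 28.3 to 60.5 CPM down to 0.675 to 3.16 CPM, with Hba-a1 called lower. The macrophage sum went from 889.8 to 1146 CPM down to 401 to 742 CPM, with Mrc1 and Apoe called lower and C1qb and C1qc higher. The part of these shifts in the result was not tested. The sort is visible in the untreated spleen, where M-MDSC held 2.25 times the level of PMN-MDSC and no libraries overlapped. In treated spleen the ratio was 1.10, and libraries of both cell types overlapped. These ratios concern a gene of the sorting antigen and were not tested.

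In tumor PMN-MDSC, Ly6c2 rose from 3.03, 8.13, 11.2 and 1.90 CPM to 137, 128, 67.5 and 245 CPM. The groups lay far apart, with a mean 23.8 times as high and a log2 fold change of 4.53 (standard error 0.573, edgeR adjusted p = 0.00247). The call held without any 1 of the 8 libraries. Of 10 monocyte markers, Ms4a4c and Ms4a6c were called higher and Ccr2 and Fn1 lower, and their sum was 7163 to 11887 CPM untreated and 3798 to 8122 CPM treated. Their part in the result was not tested. Treated tumor PMN-MDSC reached the range of untreated M-MDSC of the same organ, which held 134, 147, 82.9 and 40.3 CPM.

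Treated tumor M-MDSC held 622, 2.98 and 443 CPM of Ly6c2. Of these, 2 libraries lay above all untreated ones, and the second lay below all of them with 13 counts. With it, the log2 fold change was 1.72 (standard error 1.09, edgeR adjusted p = 0.443). Without it, the log2 fold change was 2.31 (standard error 0.393, edgeR adjusted p = 0.0150), and Ly6c2 was called. Over the 7 fits without 1 library, the log2 fold change ran from 1.03 to 2.31 (edgeR adjusted p up to 0.680), and no other fit called it. The second treated library had the highest macrophage and T cell markers of its group, the highest monocyte sum (10589.8 CPM against 8993 and 7685 CPM) and the lowest neutrophil sum (273 CPM against 916 and 1338 CPM). Between treated and untreated tumor M-MDSC, 1 of 10 monocyte markers, Fn1, was called lower. In the same library, Ly6a (105 CPM), Ly6e (1071 CPM) and Ly6i (15.1 CPM) lay above every untreated library. The part of the marker levels in the result was not tested.

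Ly6c1, the nearest paralog of Ly6c2, was scarce in every group. Its highest value was 11 CPM, or 34 counts at most, and in untreated tumor PMN- and M-MDSC 3 of 4 libraries each held none. Spleen M-MDSC held 0, 3.25, 2.07 and 0.714 CPM untreated and 11, 9.90, 10.8 and 8.85 CPM treated, and the groups did not overlap. In spleen PMN-MDSC, all untreated libraries held at most 3 counts, and the treated mean of 5.84 CPM was at least 5.47-fold higher. Ly6c1 did not reach the minimum count and was tested only without the filter on low counts. There it was called higher after treatment in spleen PMN-MDSC (log2 fold change 3.20, edgeR adjusted p = 2.5e-04), spleen M-MDSC (2.84, edgeR adjusted p = 1.8e-05) and tumor M-MDSC (3.98, edgeR adjusted p = 0.0457), and not in tumor PMN-MDSC (3.16, edgeR adjusted p = 0.307). It was also called lower in tumor than in spleen in treated PMN-MDSC (-2.44, edgeR adjusted p = 0.00159) and treated M-MDSC (-1.69, edgeR adjusted p = 0.0173). Part of its transcripts cannot be told from those of Ly6c2 and Ly6a.

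**Figure D4:**
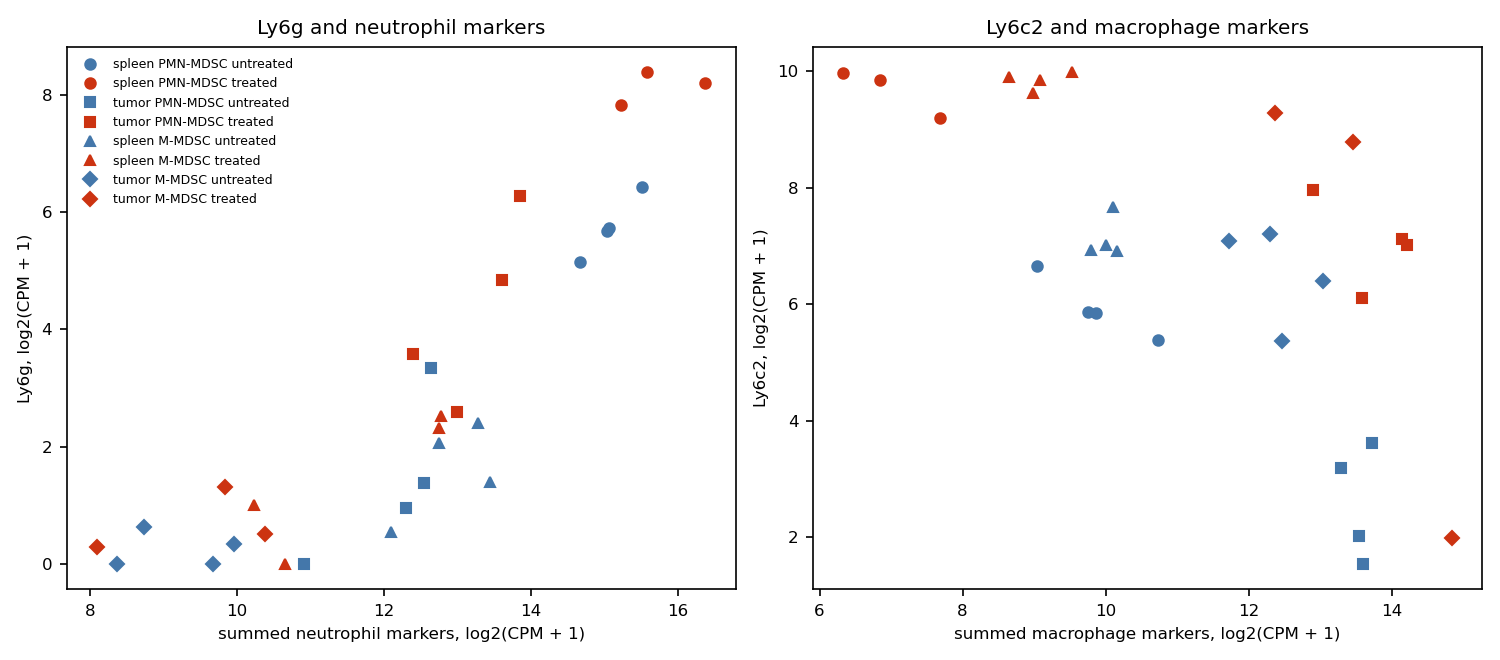
Left, Ly6g against the sum of 12 neutrophil markers, and right, Ly6c2 against the sum of 8 macrophage markers, all as log2(CPM + 1), in each of the 30 MDSC libraries (symbols give the population, blue untreated, red treated). Tumor PMN-MDSC (squares) lie to the right of spleen PMN-MDSC (circles) in macrophage markers and to the left in neutrophil markers, and the treated tumor M-MDSC library at 2.98 CPM of Ly6c2 has the highest macrophage sum, 29332 CPM.

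Ly6a, the gene of Sca-1, was called higher in all 4 populations. In spleen M-MDSC it went from 1.05, 3.25, 3.31 and 1.90 CPM to 157, 146, 199 and 314 CPM. The treated mean was 85.6 times the untreated one, which rested on 2 to 8 counts per library, and the log2 fold change was 6.48 (standard error 0.382, edgeR adjusted p = 2.2e-05). Treated library 4, with the plasma cell markers, was also the highest in Ly6a. Endothelial cells also express Ly6a, and the sum of 6 endothelial markers went from 29.5 to 39.3 CPM in untreated to 131 to 295 CPM in treated libraries. Kdr, the receptor of vascular endothelial growth factor, was called higher. Pecam1, the other one tested, was not called, and Tek and Emcn were at 0 in all of these libraries. The cells had been sorted as CD11b+, and the part of these marker levels in the result was not tested.

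In spleen PMN-MDSC, Ly6a stood at 2.39, 4.48, 2.37 and 0.642 CPM untreated and at 9.61, 28.6 and 34.9 CPM treated. The treated libraries lay above the untreated ones, with a log2 fold change of 3.65 (standard error 0.612, edgeR adjusted p = 0.00924). The call held in 5 fits without 1 library, and in the others Ly6a was below the minimum count. The first treated library was the lowest of the group in Ly6a, and also in Ly6c2, Ly6e and Ly6i. Its neutrophil markers summed to 84928 CPM against 38288 and 49059 CPM in the other treated libraries, and its interferon-response genes to 10515 CPM against 23805 and 18626 CPM. The part of these levels was not tested.

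Tumor PMN-MDSC held 11.5, 10.3, 6.79 and 8.54 CPM of Ly6a untreated and 117, 102, 61.1 and 100.3 CPM treated. Tumor M-MDSC held 11.5, 6.74, 8.60 and 10.1 CPM untreated and 149.6, 105 and 218 CPM treated. Both cell types started from nearly the same level in tumors and rose by a log2 fold change of 3.34 (standard error 0.258, edgeR adjusted p = 1.4e-04) and 4.01 (standard error 0.314, edgeR adjusted p = 0.00139). Neither call was lost without any 1 library. In tumor M-MDSC, endothelial markers summed to 20.2 to 44.5 CPM untreated and 75.8 to 160.4 CPM treated, with Kdr called higher and Pecam1 not called. Tek and Emcn were at 0 in all untreated libraries of tumor M-MDSC. In tumor PMN-MDSC, the sums were 49.7 to 72.6 CPM untreated and 47.8 to 106 CPM treated. The part of these marker levels in the results was not tested.

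Ly6e had the highest CPM of the members in every MDSC group. In spleen PMN-MDSC it rose from 241, 334, 208 and 249.8 CPM to 584, 1367 and 1619 CPM, and in tumor PMN-MDSC from 344, 281, 287 and 284 CPM to 1013, 1011, 768 and 998 CPM. The log2 fold changes were 2.49 (standard error 0.371, edgeR adjusted p = 0.00628) and 1.64 (standard error 0.182, edgeR adjusted p = 8.5e-04). All treated libraries lay above all untreated ones in both organs.

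M-MDSC had more Ly6e than PMN-MDSC before treatment. Spleen M-MDSC held 747, 883, 613 and 659 CPM untreated and 1127, 1451, 1309 and 1044 CPM treated, a log2 fold change of 0.83 (standard error 0.169, edgeR adjusted p = 0.00763). In tumor M-MDSC, the levels were 671, 669.9, 594 and 440.1 CPM untreated and 1122, 1071 and 1069 CPM treated. The libraries did not overlap there either, but the log2 fold change of 0.78 (standard error 0.204) did not pass with edgeR (adjusted p = 0.0715). DESeq2 called it (adjusted p = 0.00171), as did edgeR without the filter on low counts (adjusted p = 0.0343).

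Ly6i was scarce without treatment except in spleen M-MDSC. Spleen M-MDSC went from 22.2, 11.6, 13.2 and 18.8 CPM to 98.2, 119, 137 and 77.8 CPM, a log2 fold change of 2.79 (standard error 0.240, edgeR adjusted p = 9.3e-05). Spleen PMN-MDSC went from 2.12, 4.98, 2.03 and 5.46 CPM to 14.7, 61.6 and 103 CPM, a log2 fold change of 4.36 (standard error 0.658, edgeR adjusted p = 0.00651). In both, treated and untreated libraries were apart, although the treated PMN-MDSC libraries differed widely among themselves. Without the highest of them, library 3, the log2 fold change was 3.74 (edgeR adjusted p = 0.0312).

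In tumor PMN-MDSC, Ly6i went from 4.85, 5.42, 3.60 and 6.17 CPM to 27.9, 18.8, 58.8 and 101 CPM, and in tumor M-MDSC from 3.85, 3.37, 3.61 and 1.26 CPM to 43.0, 15.1 and 61.9 CPM. The groups did not overlap, with log2 fold changes of 3.39 (standard error 0.600, edgeR adjusted p = 0.0135) and 3.51 (standard error 0.522, edgeR adjusted p = 0.0142). Without treated PMN-MDSC library 4 (101 CPM), the first was 2.73 (edgeR adjusted p = 0.00481). Both calls were close to the threshold. The first was lost without untreated library 1 or 3 (edgeR adjusted p = 0.0644 for each). The second was lost without untreated library 1, 3 or 4 or treated library 3 (edgeR adjusted p = 0.0526 to 0.0607).

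Tumor and spleen were compared next within each cell type and treatment. In PMN-MDSC, the sorting antigens were lower in tumor. Of 3 tested members, 2 were called in untreated PMN-MDSC, where 59.1% of all genes were called in either direction, so the share of members was near the background. Both passed the minimum count only through spleen, where they were high (means of 184 and 159.8 counts for Ly6c2 and Ly6g, against 13 and 7 in tumor), so the count supports nothing by itself. Ly6g fell by 4.20 on the log2 scale (standard error 0.638, edgeR adjusted p = 3.1e-04), and without untreated tumor library 3, the highest of its group (9.19 CPM), by 5.98 (edgeR adjusted p = 1.1e-04). Ly6c2 fell by 3.47 (standard error 0.465, edgeR adjusted p = 1.4e-04). Libraries of tumor and spleen did not overlap for either gene. Ly6e did not pass, with a log2 difference of 0.05 (standard error 0.215, edgeR adjusted p = 0.841).

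In treated PMN-MDSC, 3 of 5 tested members were called (53.6% of all genes), so the share of members was near the background. In tumor, Ly6g fell by 3.61 on the log2 scale (standard error 0.779, edgeR adjusted p = 0.00486; 0.0606 without the filter on low counts). Without treated tumor library 4 (76.2 CPM), Ly6g fell by 4.68 (edgeR adjusted p = 5.1e-04). Ly6c2 fell by 2.93 (standard error 0.449, edgeR adjusted p = 9.8e-04). Ly6a was higher in tumor, by 1.51 (standard error 0.402, edgeR adjusted p = 0.0128), and its libraries did not overlap. Ly6e, with a log2 difference of -0.76 (edgeR adjusted p = 0.102), was called lower in tumor without the first treated spleen library (-1.11, edgeR adjusted p = 0.00885), and also without the filter (0.0252) or in 1 fit over the 8 groups (0.00806). The lower neutrophil and higher macrophage markers of tumor PMN-MDSC stand beside these differences. In both untreated and treated PMN-MDSC, 9 of 10 monocyte markers were called higher in tumor, with sums of 7163 to 11887 CPM against 1237 to 3205 CPM untreated and 3798 to 8122 CPM against 667 to 1535 CPM treated. The epithelial markers Krt8, Krt18 and Krt19 were called higher in tumor in both as well. The part of these marker levels was not tested.

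M-MDSC of tumor and spleen were compared in the same way. In untreated M-MDSC, 1 of 3 tested members was called (28.4% of all genes), so the share of members was near the background. It was Ly6i, which fell by 2.05 on the log2 scale in tumor (standard error 0.341, edgeR adjusted p = 7.9e-04) and was below every spleen library. It passed the minimum only through spleen (a mean of 44.5 counts, against 6.5 in tumor). In the same comparison, 6 of 8 macrophage markers were called higher in tumor and 7 of 10 tested neutrophil markers lower, with sums of 3393 to 8422 against 889.8 to 1146 CPM and of 330.4 to 992 against 4393 to 11148 CPM, and their part in the result was not tested. In treated M-MDSC, edgeR called 0 of 4 members (5.87% of all genes), with 1 at an unadjusted p under 0.05, Ly6i (log2 difference -1.37, edgeR adjusted p = 0.115), which DESeq2 called. Ly6c2 had a log2 difference of -0.22 (standard error 0.324) untreated and -1.29 (standard error 1.13) treated, with edgeR adjusted p of 0.654 and 0.531. With 1 library left out, the treated difference ran from -1.98 to -0.71. Tumor and spleen libraries of Ly6c2 overlapped without treatment and were apart after it.

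Untreated Ly6a was below the minimum count in both comparisons of compartments. Its mean was 3.76 times as high in tumor as in spleen in PMN-MDSC and 3.88 times as high in M-MDSC, and tumor libraries lay above spleen libraries in both. Without the filter on low counts, edgeR called Ly6a in both.

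Between cell types, only Ly6a, Ly6e and Ly6i were tested, since the other members belong to the sorting antigens. In untreated spleen, 2 of 2 tested genes were called, but so were 64.4% of all genes, so the count says little about the members. Ly6i passed the minimum count only through M-MDSC (a mean of 44.5 counts, against 10.2 in PMN-MDSC). Relative to M-MDSC, PMN-MDSC held less of Ly6e and Ly6i. On the log2 scale, Ly6e fell by 1.11 (standard error 0.199, edgeR adjusted p = 9.8e-04) and Ly6i fell by 1.83 (standard error 0.383, edgeR adjusted p = 0.00235). In untreated tumor, Ly6e was the 1 gene tested (13.0% of all genes called) and fell by 0.95 in PMN-MDSC (standard error 0.160, edgeR adjusted p = 0.00195).

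After treatment, Ly6a differed between cell types in spleen, while the call for Ly6e depended on the fit. In treated spleen, 1 of 3 genes was called (61.2% of all genes), Ly6a, which fell by 2.45 on the log2 scale in PMN-MDSC (standard error 0.462, edgeR adjusted p = 0.00228). The log2 difference of Ly6e was 0.52 with TMM scaling (edgeR adjusted p = 0.228), and without the first treated PMN-MDSC library it was 0.90 and called (edgeR adjusted p = 0.00899), as it was in 1 fit over the 8 groups (0.59, edgeR adjusted p = 0.0439). Its direction depended on the scaling, since the mean CPM of PMN-MDSC was 0.965 times that of M-MDSC, with overlapping libraries. In treated tumor, edgeR called 0 of 3 genes (0.380% of all genes), with 0 at an unadjusted p under 0.05 and 0 by DESeq2. Ly6a had a log2 difference of -0.63 there (standard error 0.293, edgeR adjusted p = 0.405).

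Whether the treatment effect itself differed between compartments or cell types was tested with an interaction term. In PMN-MDSC, tumor and spleen effects were not told apart for any of 5 members (3.50% of all genes called), with 0 at an unadjusted p under 0.05 and 0 by DESeq2. The differences of the effects ran from -0.96 for Ly6i (standard error 0.949) to 0.59 for Ly6g (standard error 1.09) on the log2 scale. In M-MDSC, edgeR called 1 of 4 members (0.790% of all genes), Ly6a, whose rise was smaller in tumor than in spleen by 2.45 (interaction -2.45, standard error 0.522, adjusted p = 0.0458). Ly6a reached the minimum count only through treated libraries, so the count supports nothing by itself. Its mean was 549 counts in treated spleen and 468 in treated tumor, against 6.25 and 17.5 untreated. The call of Ly6a was close to the threshold. It was lost in 11 of 15 fits that left out 1 library, with an adjusted p of at most 0.114, namely each of the 8 untreated libraries, treated spleen libraries 1 and 3 and treated tumor library 2.

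In spleen, the effects in M- and PMN-MDSC differed for 4 of 5 members (10.9% of all genes called). Ly6g reached the minimum count only through PMN-MDSC and Ly6a only through treated libraries, so the count supports nothing by itself. Ly6a rose more in M-MDSC, by 2.68 on the log2 scale (standard error 0.770, edgeR adjusted p = 0.0387). Ly6e rose more in PMN-MDSC (-1.76, standard error 0.414, edgeR adjusted p = 0.0170), and this call was kept in all 15 fits without 1 library. Ly6c2 (-1.34, standard error 0.409, edgeR adjusted p = 0.0488) and Ly6g (-2.86, standard error 0.866, edgeR adjusted p = 0.0474) also rose more in PMN-MDSC. Neither was called with RLE or upper-quartile scaling or in 1 fit over the 8 groups (edgeR adjusted p = 0.0528 to 0.463). Both are genes of the sorting antigens, and M-MDSC were sorted as Ly6G-, so the sort shapes this contrast. These values describe the gated cells and support no difference in response by themselves. Ly6g was near the limit of detection in M-MDSC, and without treated M-MDSC library 1 (4.73 CPM) its difference was -3.45 (edgeR adjusted p = 0.0360).

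Leaving out 1 library of the spleen moved several of these calls. That of Ly6a was lost in 8 of 15 fits, without each untreated M-MDSC library, untreated PMN-MDSC library 1 or 2, or treated M-MDSC library 3 or 4 (edgeR adjusted p up to 0.0813). That of Ly6c2 was lost in 13, all but those without untreated PMN-MDSC library 3 or treated PMN-MDSC library 1 (up to 0.110). That of Ly6g was lost in 10, without M-MDSC library 1, 3 or 4 untreated or 2 or 3 treated, or PMN-MDSC library 1, 2 or 4 untreated or 2 or 3 treated (up to 0.208). Ly6i was not called with all libraries and the filter on low counts (-1.69, edgeR adjusted p = 0.134), but it was called without that filter (-1.60, edgeR adjusted p = 0.00274) and without treated PMN-MDSC library 1 (-2.15, edgeR adjusted p = 0.0121).

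In tumor, edgeR called 0 of 4 members (0.0239% of all genes), with 1 at an unadjusted p under 0.05, Ly6e (-0.86, edgeR adjusted p = 0.439), which DESeq2 called.

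Bulk tumor of untreated mice held little of the sorting antigens. Ly6g was not detected in any of the 4 libraries, where 3 counts equal at most 0.795 CPM, and Ly6c2 stood at 0, 0.530, 0 and 0.687 CPM. Ly6i was at most 0.225 CPM. Ly6e stood at 28.5, 31.3, 71.1 and 77.2 CPM, below all MDSC libraries. Ly6a, at 9.38, 13.8, 21.6 and 16.6 CPM, overlapped the untreated tumor MDSC, whose means were 0.605 (PMN-MDSC) and 0.602 (M-MDSC) times that of bulk tumor. The bulk libraries were described and not tested.

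Ordered by group means, most neighboring groups overlapped. For Ly6a, treated spleen M-MDSC, treated tumor M-MDSC and treated tumor PMN-MDSC came first and overlapped in turn, followed by a gap to treated spleen PMN-MDSC. Bulk tumor and untreated tumor MDSC came next, and a gap separated them from untreated spleen MDSC. For Ly6c2, neighbors overlapped from treated spleen M-MDSC down to untreated spleen PMN-MDSC, untreated tumor PMN-MDSC stood apart below the last of these, and bulk tumor below untreated tumor PMN-MDSC. The treated tumor M-MDSC library at 2.98 CPM lay within the range of untreated tumor PMN-MDSC. For Ly6g, treated spleen PMN-MDSC stood apart above all, and the 7 steps below overlapped.

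Among members, levels were compared per length as FPKM, which divides CPM by the exon length in kilobases. In untreated spleen PMN-MDSC, Ly6e (68.2 ± 14.2 FPKM; SD, n = 4) and Ly6g (58.6 ± 22.4 FPKM) were higher than Ly6c2 (23.1 ± 9.17 FPKM). In treated spleen PMN-MDSC, Ly6e, Ly6c2 and Ly6g were within their spread at 314 ± 143, 304 ± 79.7 and 302 ± 58.3 FPKM (SD, n = 3). In treated spleen M-MDSC, Ly6c2 (335 ± 35.3 FPKM) and Ly6e (326 ± 48.3 FPKM; SD, n = 4) lay within their spread, followed by Ly6a (169 ± 63.9 FPKM) and Ly6i (93.3 ± 22 FPKM).

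Over the 30 MDSC libraries, the genes whose log2(CPM + 1) followed each member most closely were ranked by Pearson's r among 8531 genes, as a description. Libraries share group, depth and treatment, which all enter r. The closest were Ifi44 (0.95), Cfb (0.93) and Saa3 (0.91) for Ly6a, and Mx2 (0.95), Stat2 (0.93) and Parp12 (0.93) for Ly6e. Sp100 (0.91), Helz2 (0.91) and Tdrd7 (0.90) were closest to Ly6c2, and H2-T10, Irgm1 and H2-T22 (0.92 each) to Ly6i. Ly6g was followed by other genes, Msra (0.96), Slc27a4 (0.94) and Dhrs7 (0.94). Among the members, the highest r was 0.84, between Ly6e and Ly6i, and r of Ly6g with Ly6a was -0.12.

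Of 34 other genes of the Ly6/uPAR domain family, listed with earlier results known, 32 were in the table and 2 reached the minimum count in each treatment comparison, Cd177 and Plaur. Cd177 encodes a neutrophil surface protein and Plaur the urokinase receptor. Neither passed in any treatment comparison with edgeR. Cd177 had the smallest adjusted p in spleen PMN-MDSC (edgeR adjusted p = 0.0553, with a log2 fold change of 1.44 and a standard error of 0.407), where it stood at 542 to 1261 CPM untreated and at 894 to 2659 CPM treated. Plaur had a log2 fold change of 0.34 there (standard error 0.290, edgeR adjusted p = 0.499).

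Between the members lies the transcribed pseudogene I830127L07Rik, which reached 439 counts in an MDSC library. It was called higher after treatment in spleen PMN-MDSC (edgeR adjusted p = 0.0254, with a log2 fold change of 1.70 and a standard error of 0.381) and spleen M-MDSC (1.12, standard error 0.273, edgeR adjusted p = 0.0189). In tumor it did not pass, with log2 fold changes of 2.13 in PMN-MDSC (edgeR adjusted p = 0.200) and 0.65 in M-MDSC (edgeR adjusted p = 0.763). Of its stretches of 50 bases, 9.08% occur in other genes of the cluster.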

How the data were processed

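RNA was sequenced from sorted MDSC and bulk tumor. The table the authors deposited holds unnormalized whole-number counts for each gene, with 1 column per library. Per the labels and methods, reads were mapped to mm10 (GRCm38) with ContextMap and BWA and counted by strand with featureCounts (Subread 1.4.6-p3) on Gencode v16 genes. Differences in composition between libraries remain in such counts. All 35 columns were assigned to groups by the cell type, organ and treatment in their names, and 1 library under 1000 counts was left out. Among 48 pairs of libraries within groups, 0 were identical (chi-square per degree of freedom 6.88 to 55.8).

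CPM and FPKM were computed from the deposited counts with library totals and GENCODE M21 exon lengths. Tests used R 4.3.3 with edgeR 4.0.16 (TMM, robust quasi-likelihood F-test, two-sided) on the libraries of each comparison, for genes that averaged 25 counts or more. Interactions used the 4 groups concerned. Calls were made at a Benjamini-Hochberg adjusted p under 0.05 over all tested genes. The standard error is the log2 fold change divided by the root of F. Alternatives were DESeq2 1.42.0, RLE or upper-quartile scaling, no filter, no robust estimates, 1 fit over the 8 MDSC groups, the study's thresholds (adjusted p under 0.001 and at least 2-fold) and each library left out. The code was tested on simulated counts.

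Members, gene lists and the rule for named genes were chosen with earlier results of these data known. The rule named all members, the genes of each list with the smallest adjusted p and the 3 genes most correlated with each member. Markers of other cells named in the text are those called in the comparison at hand. A fold against a group with at most 3 counts in every library was computed against 3 counts per library and is a lower bound. Coding sequences came from GENCODE M21 principal transcripts and promoters from RefSeq.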

Additional observations from a re-analysis of the deposited data

Results flagged for a closer look

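In 5 of 42 pairs of a gene and a group of 4 libraries, 1 library stood far from the rest by Dixon's criterion, where chance gives about 1 in 20. For Ly6c1, any count meets the criterion when the other libraries are at 0, which leaves 3 pairs. Ly6e stood at 344 CPM in the first untreated tumor PMN-MDSC library, against 281 to 287 CPM in the others, and at 768 CPM in the third treated one, against 998 to 1013 CPM. Ly6c2 was 202 CPM in the second untreated spleen M-MDSC library, against 119 to 129 CPM. Ly6c1 was 0.400 CPM in the third untreated tumor PMN-MDSC library and 0.674 CPM in the second untreated tumor M-MDSC library, each a single count (1) against 0 in the others.

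The treatment effect differed between groups by the interaction test for 4 members, with 0.790% of all genes called in M-MDSC and 10.9% in spleen. Ly6a reached the minimum count only through treated libraries and Ly6g only through PMN-MDSC, so the count supports nothing by itself. That of Ly6a was smaller in tumor than in spleen M-MDSC (-2.45), and larger in M- than in PMN-MDSC of spleen (2.68). The effects of Ly6c2 (-1.34), Ly6e (-1.76) and Ly6g (-2.86) were smaller in M- than in PMN-MDSC of spleen. Ly6c2 and Ly6g are genes of the sorting antigens, so the sort shapes their contrast between cell types. In the spleen PMN-MDSC libraries behind these differences, macrophage markers summed to 528 to 1704 CPM untreated and 79.6 to 204 CPM treated, and their part was not tested. Endothelial markers in spleen M-MDSC, of which Tek and Emcn were at 0 in every library, summed to 29.5 to 39.3 CPM untreated and 131 to 295 CPM treated. Their part in the results for Ly6a was not tested. With 1 library left out, Ly6a lost its calls in 11 and 8 of 15 fits, Ly6c2 in 13, Ly6g in 10 and Ly6e in 0.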

How the results depend on the processing

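By name, no paired analysis was possible because the columns carry only a running number and not the replicate numbers of the sample titles. Cells of spleen and tumor nevertheless came from the same mice. Sorted by running number, the columns pass through the groups in the order of the samples, which may give the mouse. Libraries were not paired by this order. What such pairing would change in the comparisons of compartments and cell types and in the interactions was not tested. Counts of called members changed by over 1.5 times as follows. With the study's thresholds, edgeR called 3 genes of the whole table for treatment in spleen PMN-MDSC, 20 in tumor PMN-MDSC and 1 in tumor M-MDSC, of which 0, 2 and 0 were members, so the counts of 0 say nothing about the members. These thresholds called 1 member (of 1045 genes) for tumor against spleen in treated PMN-MDSC, 1 (of 1993), 0 (of 1728) and 0 (of 126) for cell types in untreated spleen, treated spleen and untreated tumor, and 0 (of 1) and 0 (of 10) for the interactions in M-MDSC and in spleen. Without the filter on low counts, 4 members (of 1064 genes called) were called for treatment in tumor M-MDSC, 3 (of 3662) and 2 (of 1972) for tumor against spleen in untreated and treated M-MDSC, and 2 (of 659) for the interaction in M-MDSC. A fit over 8 groups called 2 each for tumor against spleen in untreated M-MDSC (of 1845 genes), for cell types in treated spleen (of 5794) and for the interaction in spleen (of 1144), and RLE and upper-quartile scaling called 2 each for the last (of 908 and 926). DESeq2 called 1 for tumor against spleen in treated M-MDSC (of 1132) and 1 for the interaction in tumor (of 22). The cause of these changes was not tested.

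With 1 library left out, treatment called 4 to 5 members in spleen PMN-MDSC, 3 to 4 in tumor PMN-MDSC, 4 in spleen M-MDSC and 1 to 3 in tumor M-MDSC. Tumor against spleen gave 2 in untreated and 3 to 4 in treated PMN-MDSC, 0 to 1 in untreated M-MDSC, where Ly6i fell below the minimum count in 3 of 8 fits, and 0 in treated M-MDSC. Cell types gave 1 to 2 in untreated and 1 to 2 in treated spleen, 1 in untreated and 0 in treated tumor. Interactions gave 0 in PMN-MDSC, 0 to 1 in M-MDSC, 1 to 5 in spleen and 0 in tumor. Upper-quartile scaling moved the median log2 fold change of all genes for treatment in spleen PMN-MDSC from 0.01 to -0.16, between cell types from -0.11 to -0.44 in treated and from -0.08 to -0.33 in untreated spleen, for tumor against spleen from 0.04 to 0.28 in treated and from 0.01 to 0.17 in untreated PMN-MDSC and from 0.02 to -0.13 in untreated M-MDSC, and for the interaction in spleen from -0.02 to 0.16. The other comparisons moved by less than 0.1. Scaling by TMM factors changed the mean levels of Ly6c2 (1160.3 CPM) and Ly6g (392 CPM) in treated spleen PMN-MDSC and of Ly6e in treated tumor M-MDSC (1040.4 CPM) by more than 1 SD. Among 995 values of single genes under the alternatives, 75 lost their call and 15 gained one. No called value changed its direction, but 19 values of 9 results that were not called did. Tumor against spleen, Ly6e in untreated PMN-MDSC was -0.03 without the filter, and with 1 library left out it ran from -0.07 to 0.32, Ly6c2 in untreated M-MDSC from -0.44 to 0.00 and Ly6e there from -0.12 to 0.08. Between cell types, Ly6i ran from -0.79 to 0.21 in treated spleen and from -0.10 to 1.0 in treated tumor. The interactions ran from -0.74 to 0.01 (Ly6a) and -0.55 to 2.39 (Ly6g) in PMN-MDSC, -0.18 to 0.05 (Ly6e) in M-MDSC and -0.36 to 0.74 (Ly6i) in tumor. Depth limits Ly6c1 throughout and Ly6g in M-MDSC, and 3 libraries in a group limit the precision.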
